A study of Mus musculus with 6 samples.

Results

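The genes described here make up the MHC class I presentation machinery of mouse cDNT, the double-negative T cells that were made from CD4+ T cells. The 10 genes were picked by symbol, by their known role, from the 29393 gene rows of the deposited table: the heavy chains H2-K1, H2-D1 and H2-Q7, the light chain B2m, the peptide transporter and loading genes Tap1, Tap2 and Tapbp, the immunoproteasome subunits Psmb8 and Psmb9, and the regulator Nlrc5. All 10 were among the 14916 genes that reached 10 counts in 3 or more libraries, which were tested.

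Class I molecules carry peptides from inside a cell to its surface, where CD8+ T cells and the inhibitory receptors of NK cells read them. Proteasomes cut proteins into peptides, the TAP transporter moves the peptides into the endoplasmic reticulum, and tapasin helps to load them onto a heavy chain paired with beta-2 microglobulin. T cells carry this machinery themselves, and interferon, acting through IRF1 and NLRC5, is the best known signal that raises it.

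Both groups came from adult C57BL/6 mice. Per the study's methods, CD4+CD25- T cells of CD45.1 mice were cocultured for 7 days with mature dendritic cells and IL-2. The double-negative T cells were sorted, and anti-CD3/CD28 antibodies and IL-10 at 50 ng/ml were given for 24 h (W/ IL-10, 3 libraries). The other group had no IL-10 (W/O IL-10, 3 libraries), and the methods do not say whether it received the antibodies. The labels name spleen as the tissue and do not mention the antibodies, and no allele or transgene separates the groups. Nothing in the labels says that the 3 libraries of a group came from separate cultures or animals, so the p-values measure the spread between these libraries, which may be technical.

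Each library held 21619420 to 23967088 counts, and a floor of 3 counts equals 0.125 to 0.139 CPM, a unit in which counts are scaled to a common library size after TMM, a normalization for library composition. All 8 T cell markers passed the filter, with Thy1 between 1288 and 1706 CPM, and their summed level was 2596 to 3033 CPM W/O IL-10 and 3444 to 3489 CPM W/ IL-10. Cd4 was near the floor at 0.351 to 1.55 CPM, but Cd8a was counted at 95.8 to 119 CPM W/O IL-10 and 139 to 169 CPM W/ IL-10, which goes against the double-negative label at the level of mRNA. The B cell markers summed to 62.3 to 153 CPM and 59.4 to 106 CPM in the same order, the dendritic cell markers to 31.3 to 34.6 CPM and 52.0 to 62.2 CPM, of which Itgax gave 18.8 to 22.7 CPM and 39.9 to 49.4 CPM, with Clec9a and Siglech at 0 or 1 count per library, the macrophage markers to 23.6 to 31.0 CPM and 28.7 to 31.5 CPM, with C1qa at 0 W/ IL-10, the NK cell markers to 565 to 599 CPM and 417 to 440 CPM, carried by Eomes, and the erythroid markers to 0.948 to 4.09 CPM and 0.533 to 1.17 CPM. Fewer cells of a type and less RNA per cell cannot be told apart in such bulk libraries, and the part of these cells in the values below was not tested.

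The start regions of the class I genes are shown first, because 3 heavy chain genes share the order of several short motifs there. The windows are RefSeq sequence of GRCm38.p6, read 5′ to 3′ on the strand of the gene, and the capitals mark, on either strand, the NF-kB motif GGGATTCCC, the short interferon response motif TTTCACTT, the spaced interferon response motif TTTCNNTTT, the core of the cyclic AMP response element TGACG and the CCAAT box. They stand for H2-K1 at chr17:34000353-34000463 on the minus strand, H2-Q7 at chr17:35439017-35439149 on the plus strand and B2m at chr2:122147543-122147644 on the plus strand.
H2-K1: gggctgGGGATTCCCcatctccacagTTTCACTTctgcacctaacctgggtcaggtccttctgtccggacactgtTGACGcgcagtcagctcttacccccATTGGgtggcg
H2-Q7: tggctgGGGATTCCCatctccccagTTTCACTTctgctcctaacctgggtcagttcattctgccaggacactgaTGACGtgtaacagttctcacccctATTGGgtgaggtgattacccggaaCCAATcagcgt
B2m: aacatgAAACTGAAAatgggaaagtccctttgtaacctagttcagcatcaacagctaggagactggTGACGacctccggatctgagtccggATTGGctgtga

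Of the 10 genes, 8 matched a RefSeq window of 300 bases around the start site, and Tap2 and Nlrc5 did not. The NF-kB motif was in the windows of H2-K1, H2-D1 and H2-Q7 and in 0.353% of all 32851 windows (116 of them), and TTTCACTT was in the same 3 genes and in 1.6% of all windows. In these 3 genes the motifs came in the same order, from the NF-kB motif to TTTCACTT, TGACG and a CCAAT box, which do not overlap. The first 2 began 110 and 90 bases before the start site in H2-K1 and 132 and 113 bases before it in H2-Q7. In H2-D1 they began 170 and 150 bases before the RefSeq start site. All 134 bases of that H2-D1 stretch lie in annotated exons, and its sequence is not printed. TTTCNNTTT was in B2m and in 10.6% of all windows, and the interferon gamma motif TTCNNNGAA was in Psmb8 and in 8.30% of all windows. TGACG was in 6 of the 8 genes (20.8% of all windows) and the CCAAT box in 7 of them (37.4%). The windows of Tap1 (chr17:34187306-34187605) and Psmb9 (chr17:34187281-34187580) overlap on opposite strands. Their TGACG matches are the same bases, and so are their CCAAT matches. The 3 heavy chain genes resemble each other in sequence. The 8 genes are therefore not independent, and these counts do not show an enrichment over all windows. These matches are letters in a window and were not set against binding data.

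In the comparison of the groups, 0 of the 10 genes passed the rule for differential expression. The rule, a fold change of at least 1.5 with a Benjamini-Hochberg adjusted p under 0.05 in edgeR's quasi-likelihood test, called 217 of all tested genes, or 1.45%. At an adjusted p under 0.05 with any fold change, 0 of the 10 passed against 2.19% of all tested genes, and 0 of the 10 had an unadjusted p under 0.05 in edgeR, DESeq2 or limma-voom. The 95% confidence intervals of all 10 spanned no change, and all 10 left out a 1.5-fold change in either direction, the widest bounds being 0.759-fold and 1.26-fold. The estimates lay below 0 for 7 genes and above 0 for 3, with a median log2 fold change of -0.11 against 0.01 over all tested genes. The 3 W/ IL-10 libraries were all below the 3 W/O IL-10 libraries for H2-K1, H2-Q7 and Tap1, a state found for 11.2% of all tested genes, and all above for none of the 10, against 11.3%.

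**Figure D1:**
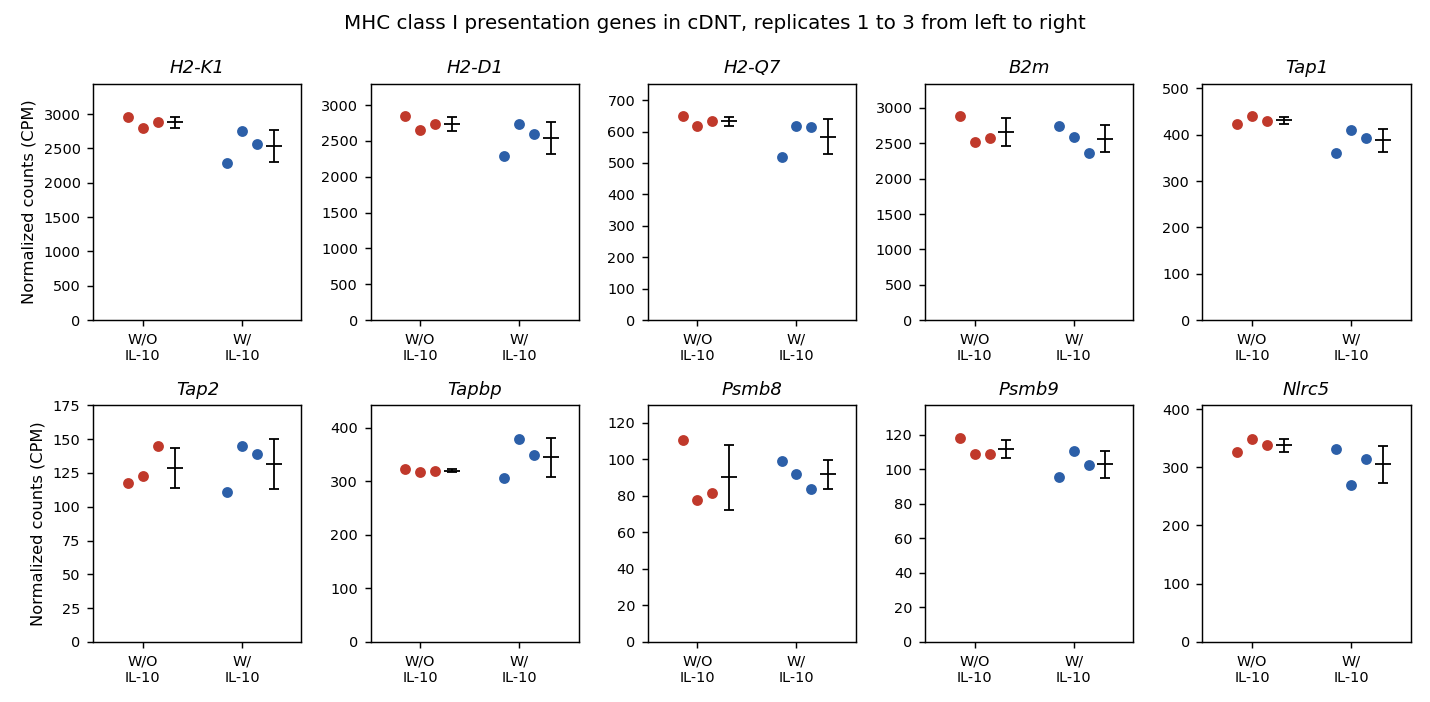
Normalized counts (CPM, linear axes from 0) of the 10 genes in each library, with W/O IL-10 in red and W/ IL-10 in blue, replicates 1 to 3 from left to right, and the mean and SD beside them (n = 3 libraries per group). The groups do not overlap for H2-K1, H2-Q7 and Tap1, and they overlap for the other 7 genes.

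H2-K1 (ENSMUSG00000061232, GRCm38 chr17:33996017-34000347, minus strand) encodes the classical heavy chain H-2K. Its level was 2961, 2798.5 and 2881 CPM in replicates 1, 2 and 3 W/O IL-10, against 2291, 2756 and 2566 CPM in replicates 1, 2 and 3 W/ IL-10, and all values below are in this order. The groups did not overlap, but W/ IL-10 replicate 2 came close to the lowest library W/O IL-10. The means were 2880.2 ± 81.3 and 2538 ± 234 CPM (SD, n = 3). The log2 fold change was -0.18 (SE 0.09, 95% interval -0.40 to 0.03, adjusted p = 0.420 in edgeR's test). Without W/ IL-10 replicate 1, the lowest library, it was -0.11.

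H2-D1 (ENSMUSG00000073411, chr17:35262730-35267499, plus strand) encodes the other classical heavy chain of this strain, H-2D. It was counted at 2843, 2648 and 2733 CPM W/O IL-10 and at 2292, 2737 and 2591 CPM W/ IL-10. The groups overlapped, since W/ IL-10 replicate 2 was above W/O IL-10 replicates 2 and 3. With a log2 fold change of -0.11 (SE 0.09, 95% interval -0.32 to 0.10, adjusted p = 0.638 in edgeR's test), H2-D1 did not pass, and the estimate was -0.04 without W/ IL-10 replicate 1 and -0.17 without W/ IL-10 replicate 2. The ratio of H2-K1 to H2-D1 counts within a library was 1.04, 1.06 and 1.05 W/O IL-10 and 1.00, 1.01 and 0.991 W/ IL-10. This ratio was looked at after the values were seen and is given without a test.

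H2-Q7 (ENSMUSG00000060550, chr17:35439155-35443773, plus strand) encodes a Qa-2 heavy chain, a nonclassical molecule held to the membrane by a lipid anchor. It was lower than the classical chains, at 648, 619 and 633 CPM W/O IL-10 and 519.7, 617 and 615 CPM W/ IL-10. The groups stood apart by the small distance between 619 and 617 CPM, and W/ IL-10 replicate 1 was far below the rest. The log2 fold change was -0.12 (SE 0.09, 95% interval -0.32 to 0.09, adjusted p = 0.606 in edgeR's test) and -0.04 without that library.

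The heavy chain genes resemble each other, and reads from a shared stretch could be split between them. Of the 50-base stretches of H2-K1, H2-D1 and H2-Q7, 9.60%, 12.8% and 26.4% also occurred in transcripts of other genes, mainly of other heavy chain genes, so the values of H2-Q7 in particular are uncertain. Summed over H2-K1, H2-D1 and H2-Q7 the level was 6452, 6065 and 6247 CPM W/O IL-10 and 5102, 6111 and 5773 CPM W/ IL-10, with overlap. These 3 genes held 76.6% to 78.6% of the counts of 17 heavy chain genes, which are these 3 and those of a fixed list found in the table. The log2 difference of the sums was -0.15 for the 3 genes and -0.14 for the 17.

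B2m (ENSMUSG00000060802, chr2:122147686-122153083, plus strand) encodes beta-2 microglobulin, the invariant chain without which heavy chains do not reach the surface. Its level was 2882, 2518 and 2582 CPM W/O IL-10 and 2744, 2595 and 2357 CPM W/ IL-10. W/O IL-10 replicate 1 was the highest and W/ IL-10 replicate 3 the lowest, and the other libraries were mixed. B2m had a log2 fold change of -0.05 (SE 0.10, 95% interval -0.27 to 0.17, adjusted p = 0.847 in edgeR's test). None of its 50-base stretches occurred in another gene.

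Tap1 (ENSMUSG00000037321, chr17:34187553-34197225, plus strand) and Tap2 (ENSMUSG00000024339, chr17:34203527-34216321, plus strand) encode the paired chains of the peptide transporter. Tap1 was at 423, 439.7 and 429 CPM W/O IL-10 and at 361, 410.3 and 393 CPM W/ IL-10, all lower than any library W/O IL-10. The log2 fold change of Tap1 was -0.15 (SE 0.08, 95% interval -0.33 to 0.03, adjusted p = 0.427 in edgeR's test), and -0.10 without W/ IL-10 replicate 1. Tap2, the less abundant of the pair, was at 118, 122 and 145 CPM W/O IL-10 and at 111, 145 and 139 CPM W/ IL-10. Its groups covered the same range, and the log2 fold change was 0.04 (SE 0.12, 95% interval -0.24 to 0.31, adjusted p = 0.923 in edgeR's test).

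Tapbp (ENSMUSG00000024308, chr17:33915899-33929292, plus strand) encodes tapasin, which bridges the transporter and the empty heavy chain. It was at 323, 318 and 318 CPM W/O IL-10, the tightest of the 10 genes with a coefficient of variation of 0.804%, and at 307, 378 and 348 CPM W/ IL-10, on both sides of the W/O IL-10 values. The log2 fold change was 0.11 (SE 0.09, 95% interval -0.10 to 0.31, adjusted p = 0.631 in edgeR's test), with 0.18 without W/ IL-10 replicate 1 and 0.03 without W/ IL-10 replicate 2. Of the exon bases of Tap2 and Tapbp, 18.5% and 24.9% lay opposite genes on the other strand, and whether the counting used strand is not given in the sources used here.

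Psmb8 (ENSMUSG00000024338, chr17:34197721-34201454, plus strand) and Psmb9 (ENSMUSG00000096727, chr17:34181987-34187764, minus strand) encode catalytic subunits that replace PSMB5 and PSMB6 when an immunoproteasome is built. Psmb8 was at 111, 77.9 and 81.5 CPM W/O IL-10, where replicate 1 stood above the other two, and at 99.3, 92.1 and 83.5 CPM W/ IL-10. The groups overlapped, and the log2 fold change was 0.03 (SE 0.13, 95% interval -0.28 to 0.33, adjusted p = 0.955 in edgeR's test). Psmb9 was at 118, 109 and 109 CPM W/O IL-10 and at 95.4, 111 and 103 CPM W/ IL-10. Its groups overlapped through W/ IL-10 replicate 2, with a log2 fold change of -0.12 (SE 0.08, 95% interval -0.30 to 0.06, adjusted p = 0.528 in edgeR's test) that was -0.07 without W/ IL-10 replicate 1. Psmb9 starts beside Tap1 on the other strand, and 5.80% of its exon bases and 3.90% of those of Tap1 overlapped the partner. Of the exon bases of Psmb8, 14.7% lay opposite a gene on the other strand, so the missing strand setting applies to its values as well.

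Nlrc5 (ENSMUSG00000074151, chr8:94434356-94527272, plus strand) encodes the transactivator that binds class I promoters with the RFX, CREB and NF-Y factors. It was at 326, 349 and 338 CPM W/O IL-10 and at 332, 269 and 314 CPM W/ IL-10. W/ IL-10 replicate 1 lay among the W/O IL-10 libraries and replicate 2 was the lowest, unlike for the heavy chains. For Nlrc5 the log2 fold change was -0.15 (SE 0.09, 95% interval -0.36 to 0.06, adjusted p = 0.516 in edgeR's test), and it was -0.07 without W/ IL-10 replicate 2.

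**Figure D2:**
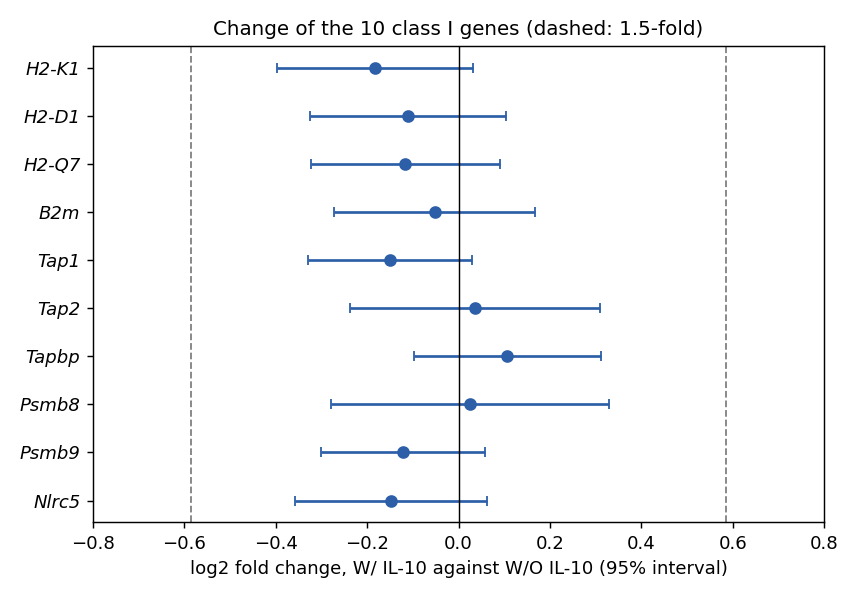
Log2 fold change (W/ IL-10 against W/O IL-10) of the 10 genes with its 95% interval from edgeR's test, 3 libraries per group, and dashed lines at a 1.5-fold change. All intervals cross 0, and the estimates run from -0.18 for H2-K1 to 0.11 for Tapbp.

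W/ IL-10 replicate 1 held the lowest of the 6 values for 7 of the 10 genes, and W/O IL-10 replicate 1 the highest for 6. The 10 genes together took 1.03% to 1.10% of a library's counts W/O IL-10 and 0.871%, 0.996% and 0.945% in W/ IL-10 replicates 1, 2 and 3. Without W/ IL-10 replicate 1, as in the full set, 0 of the 10 genes were called. The coefficient of variation was 0.804% to 19.95% W/O IL-10 and 6.39% to 14.1% W/ IL-10, while counting error was at most 2.30% for the least counted gene. A correction for the GC content and length of the genes moved each estimate by over 1.5 times, among them to -0.24 for B2m, -0.11 for H2-K1, -0.05 for Tap1 and 0.20 for Tapbp, and all 10 kept their sign. With it, B2m and Tapbp had an unadjusted p under 0.05 and adjusted p of 0.249 and 0.173 in edgeR's test. Without the correction, 1 of the 10 genes reached an unadjusted p under 0.05 without W/O IL-10 replicate 1. The same test also gave 1 without W/ IL-10 replicate 2.

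Per kilobase of the principal transcript, the levels of the 10 genes spread widely. B2m was the most abundant at 3010 CPM per kb (median of the 6 libraries), rank 6 of 12445 ranked genes, followed by H2-K1 at 1715, H2-D1 at 1280.0 and H2-Q7 at 413 CPM per kb. Tap1 at 141 and Tapbp at 111 CPM per kb came next and their ranges over the 6 libraries overlapped. Psmb9 stood at 80.6 CPM per kb and Psmb8 at 53.9, and Nlrc5 at 43.4 and Tap2 at 38.0, rank 2100, had overlapping ranges. The ranges of all other neighbours in this order were apart.

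The immunoproteasome subunits were also set against their constitutive counterparts within each library. The ratio of Psmb8 to Psmb5 counts was 2.41, 3.11 and 3.20 W/O IL-10 and 3.12, 2.79 and 3.32 W/ IL-10 (log2 difference 0.09, p = 0.6 in a two-sided exact permutation test). Of the 50-base stretches of Psmb5, 54.1% also occurred in transcripts of other genes, so this ratio and the values of Psmb5 are uncertain. The ratio of Psmb9 to Psmb6 was 1.07, 1.14 and 1.09 W/O IL-10 and 0.871, 1.00 and 1.04 W/ IL-10. All 3 libraries W/ IL-10 were lower for this ratio, with a log2 difference of -0.19 and p = 0.1 in the exact test, the smallest p that 3 libraries against 3 can give, or 0.3 adjusted over the 3 ratios. Without W/ IL-10 replicate 1 the difference was -0.11. The ratio of Psmb10, the remaining catalytic subunit, to Psmb7 was 1.72, 1.97 and 1.92 W/O IL-10 and 1.67, 2.07 and 2.09 W/ IL-10 (log2 difference 0.05, p = 0.6 in the exact test). Over the 3 ratios, the adjusted p was 0.6 for Psmb8 and Psmb10. Psmb5, Psmb6, Psmb7 and Psmb10 themselves had log2 fold changes of -0.10, 0.06, 0.08 and 0.14, with adjusted p of 0.882, 0.772, 0.801 and 0.496 in edgeR's test.

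**Figure D3:**
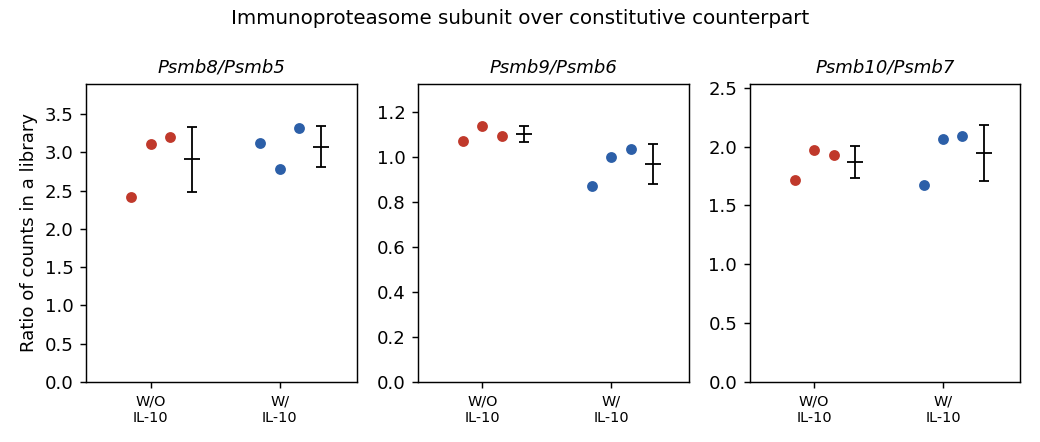
Ratio of counts of each immunoproteasome subunit to its constitutive counterpart in each library (linear axes from 0), W/O IL-10 in red and W/ IL-10 in blue, replicates 1 to 3 from left to right. The groups are apart for Psmb9/Psmb6 and overlap for Psmb8/Psmb5 and Psmb10/Psmb7.

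Other lists of the pathway also held few calls. With 1.45% of all tested genes called, 0 calls in lists this short is near that share. Of 9 tested other heavy chain genes, 0 passed, from H2-Q2 at a log2 fold change of -0.59 (adjusted p = 0.322 in edgeR's test) to H2-Q10 at 0.14, with a median of -0.04. H2-Q6, a close relative of H2-Q7, was lower in all 3 libraries W/ IL-10 (791 ± 28.9 against 676 ± 32.0 CPM, adjusted p = 0.228 in edgeR's test). It was the only 1 of the 9 in this state, which was found for 11.2% of all tested genes. Of its 50-base stretches, 32.0% also occurred in transcripts of other genes, among them H2-Q7. Its values are therefore uncertain and not independent of those of H2-Q7. H2-T23, which encodes Qa-1, the ligand of CD94/NKG2A, was at 376 ± 6.98 and 373 ± 22.9 CPM (log2 fold change -0.01, adjusted p = 0.963 in edgeR's test). Of 3 tested class I-like genes 0 passed, from Procr at -0.64 to Mr1 at 0.11.

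Of 12 genes for loading and quality control in the endoplasmic reticulum, 0 passed and 4 were higher in all libraries W/ IL-10, a state of 11.3% of all tested genes, with a median log2 fold change of 0.12. They ran from Bcap31, an export receptor, at -0.02 to Pdia3, the oxidoreductase of the loading complex, at 0.24 (adjusted p = 0.318 in edgeR's test). Of 6 immunoproteasome partners 0 passed, from Psme2 at -0.02 to Psme4 at 0.19, and of 14 constitutive 20S subunits 0 passed and 3 were higher in all libraries W/ IL-10, from Psmb5 to Psma3 at 0.20.

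Of 20 regulators of class I genes 0 passed, while 6 were lower and 1 was higher in all libraries W/ IL-10, against 11.2% and 11.3% of all tested genes. Stat3, the transcription factor downstream of the IL-10 receptor, had the highest estimate of the list at 382 ± 34.6 CPM W/O IL-10 and 498 ± 13.1 CPM W/ IL-10 (log2 fold change 0.38, adjusted p = 0.0720 in edgeR's test), and Ciita, the class II transactivator, the lowest at -0.59 (adjusted p = 0.562 in the same test). Irf1, which carries the interferon signal to class I promoters, had an estimate of -0.09 (adjusted p = 0.643 in edgeR's test). Of 16 interferon genes, 1 was called, against 1.45% of all tested genes. This was Ifng, the interferon that raises class I genes in many cells. It was at 10.6, 9.97 and 13.1 CPM W/O IL-10 and at 27.8, 23.9 and 25.4 CPM W/ IL-10, so the groups were far apart (log2 fold change 1.19, SE 0.13, adjusted p = 0.00383 in edgeR's test). Ifnar2, a chain of the type I interferon receptor, fell from 49.1 ± 1.52 to 37.1 ± 1.55 CPM (log2 fold change -0.40, adjusted p = 0.0374 in edgeR's test, under 1.5-fold), and Ifngr2, a chain of the interferon gamma receptor, was lowest at -0.97 (adjusted p = 0.106 in the same test). Ifng passed an adjusted p under 0.05 with each of the 6 libraries left out in turn (adjusted p up to 0.0424 in edgeR's test). Ifnar2 passed only without W/O IL-10 replicate 1, and its adjusted p was 0.107 to 0.139 without any one of the other 5 libraries. The median of the list was -0.10, and a link between Ifng and the 10 class I genes was not tested.

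Class II genes, as a contrast, had estimates below 0 for 8 of 8, against 7275 of all 14916 tested genes, with a median log2 fold change of -0.57. Of the 8, 1 had an adjusted p under 0.05 in edgeR's test, against 2.19% of all tested genes. Only 2 of the 8 were lower in all libraries W/ IL-10, a state of 11.2% of all tested genes. H2-Oa fell from 5.13 ± 0.284 to 2.63 ± 0.380 CPM (log2 fold change -0.96, adjusted p = 0.0415 in edgeR's test), and the smallest estimate in size was that of H2-DMb1 at -0.34. The call of H2-Oa likewise held without W/O IL-10 replicate 1 and was lost without any one of the other 5 libraries (adjusted p 0.106 to 0.169 in edgeR's test). The B cell markers, which were highest in W/O IL-10 replicate 2, moved with these genes, and their part in the class II values was not tested. Among the markers, Cd8a (107 ± 11.7 to 158 ± 16.6 CPM), Cd8b1 (38.1 ± 6.03 to 60.8 ± 5.15 CPM) and Itgax rose, and Cd5, Eomes and Ncr1 fell, with adjusted p of 0.0369, 0.0306, 0.00383, 0.0467, 0.0176 and 0.0460 in edgeR's test. Of these, Cd8a, Cd5 and Eomes changed by under 1.5-fold and so were not called. Itgax kept an adjusted p under 0.05 with each library left out, and the other 5 each missed it without W/O IL-10 replicate 2 and without any one W/ IL-10 library (adjusted p up to 0.218 in edgeR's test). The marker lists were mixed. Of 4 tested dendritic cell markers 2 had estimates below 0, with Zbtb46 lowest at -0.44. Of 5 NK cell markers 3 were below 0, and Itga2 was highest at 0.53. Of 8 T cell markers only Cd5 was below 0, and of 3 coreceptors only Cd4, at -0.65.

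**Figure D4:**
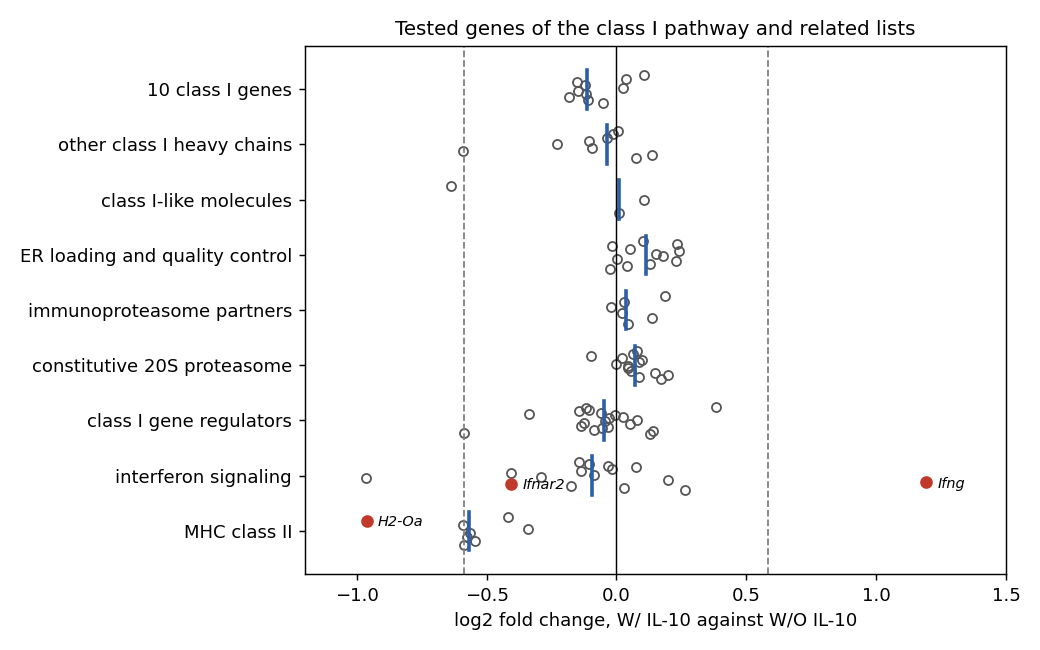
Log2 fold change (W/ IL-10 against W/O IL-10, horizontal axis) of each tested gene by pathway list (vertical axis), with the median of each list as a blue bar, genes with an adjusted p under 0.05 as filled red points and a 1.5-fold change as dashed lines. The 10 members lie between -0.18 and 0.11, and Ifng at 1.19 stands apart from the interferon list.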

How the data were processed

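The libraries were grouped by the sample labels, with 3 in each group. The authors deposited whole-number counts per gene, not normalized, for 29393 Ensembl identifiers. The submitters' processing notes name HISAT2, HTSeq and GRCm38, whereas the study's methods name TopHat and Cufflinks with UCSC annotation. Versions, the strand setting and the handling of reads that map to several places are not given in the sources used here. The methods name a NEBNext kit and the labels a TruSeq kit, and the series' design text speaks of duplicates.

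TMM factors (0.953 to 1.03) and the quasi-likelihood test were computed from these counts with edgeR 4.0.16 in R 4.3.3, over all 6 libraries without a block, for the 14916 genes that reached 10 counts in 3 or more libraries, with Benjamini-Hochberg adjustment over them. No pair of libraries held identical counts. Alternatives were upper-quartile normalization, DESeq2 1.42.0, voom in limma 3.58.1, other filters, the replicate block, a GC and length correction (splines with 5 degrees of freedom, for 99.9% of tested genes) and each library left out in turn. Ratios were tested by two-sided exact permutation in Python 3.11.15 (scipy 1.17.1). The steps were tested on simulated counts.

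Symbols and coordinates come from GENCODE M21 on GRCm38, in which 29332 identifiers were found. Sequences are RefSeq, GRCm38.p6. The NF-kB motif and the spaced interferon response motif were each shortened by 1 letter after the windows had been searched, which left the same members with a match and raised the share of all windows with one. Named genes are the 10 members, the genes of the fixed lists with an adjusted p under 0.05, the highest and lowest estimate of each list, the constitutive subunits, Psmb10 and H2-T23. Others, such as H2-Q6 and Irf1, were chosen after their values were seen. The members and the lists were chosen with earlier results of these data known. H2-M9, H2-M10.1 and Cd209a were not analysed here. The results for some genes of the lists are not reported here.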

Additional observations from a re-analysis of the deposited data

How the results depend on the processing

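None of the 10 genes was called under any alternative that was run. Their log2 fold changes lay between -0.25 and 0.20 in 140 values under 14 settings, 132 kept their sign, and the lowest adjusted p was 0.113 (Tapbp, correction for GC content and length with the replicate block, edgeR). The signs that turned did so with a library left out, over ranges of -0.104 to 0.0047 for B2m, -0.0405 to 0.147 for Tap2 and -0.0799 to 0.191 for Psmb8. The ratio Psmb8/Psmb5 ranged from -0.04 to 0.164 (log2), Psmb10/Psmb7 from -0.008 to 0.156 and Psmb9/Psmb6 from -0.239 to -0.112 with a library left out, and neither these tests nor those on all 6 libraries can reach an exact p under 0.05. The cause was not tested. The lowest count of any of the 10 genes in a library was 1883.

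Over all tested genes the count of 217 became 359 with DESeq2, 637 without a filter on low counts and 327 at any fold change. Leaving out 1 library gave 35 to 251, with 35 without W/ IL-10 replicate 3, 56 without W/ IL-10 replicate 1, 83 without W/O IL-10 replicate 2 and 96 without W/ IL-10 replicate 2. The replicate block gave 196 calls, and 330 with the correction for GC content and length. Under the block the adjusted p was 0.0609 for Ifnar2 and 0.058 for H2-Oa (edgeR). Deviations of log2 CPM from the group mean correlated at 0.0524, -0.0573 and 0.114 between same-numbered libraries of the groups. Between differently numbered libraries these deviations correlated at -0.106 to 0.0409, so 0.0524 and 0.114 lay above that range. The numbers were not taken as pairs in the main test, and the block was run as an alternative.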
